A study of Rattus norvegicus with 12 samples.

Results

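Fibroblast growth factor (FGF) signalling in cultured fetal rat metatarsal bones was described through 10 genes chosen by symbol from the gene count tables, out of 30045 symbols counted. They are 3 receptors (Fgfr1, Fgfr2, Fgfr3), 3 ligands (Fgf2, Fgf9, Fgf18) and 4 feedback inhibitors (Spry1, Spry2, Spry4, Dusp6). They were chosen by their known roles, with earlier results of these data known, and the rule itself uses no measured value. Of the 10 genes, 9 had at least 60 counts in at least 2 libraries and were tested among the 12602 genes that met this minimum. Fgf9 did not meet it and is given by its values.

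The bones were hind paw metatarsals of fetal Sprague Dawley rats at embryonic day 19, cultured for 72 h in defined medium. Per the paper, each bone was kept in its own well, and about 20 bones of a group were pooled for RNA extraction. The bones of the control pools received ethanol, the solvent of dexamethasone. Those of the other pools received dexamethasone, a synthetic glucocorticoid, at 1 µM, or lithium chloride (LiCl) at 10 mM with ethanol, or both drugs. All 4 groups shared the medium with its bovine serum albumin, β-glycerophosphate and ascorbic acid, and each group had 3 pools, each sequenced as 1 polyA-selected RNA library. The bones came from 3 rats, so the groups shared rats, but which replicate number belongs to which rat is not stated. No gene was deleted or overexpressed in any group. The libraries held between 9055581 and 21953446 counts, and replicates differed by more than counting noise. Chondrocyte markers such as Col2a1, the collagen of the cartilage matrix, were high in every library. A pool holds the whole bone with its cartilage, perichondrium, bone collar and remaining vessels, so that fewer cells of a type and less RNA per cell cannot be told apart.

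FGFs are secreted ligands that bind receptor tyrosine kinases together with heparan sulfate and activate the RAS-ERK cascade, which in turn induces its own inhibitors, among them the Sprouty proteins and the dual-specificity phosphatase DUSP6. In the growth plate FGFR3 is the receptor of proliferating and prehypertrophic chondrocytes, where its activation restrains proliferation and bone elongation. Activating FGFR3 mutations cause achondroplasia. FGFR1 is known from hypertrophic chondrocytes and osteoblasts and FGFR2 from the perichondrium and bone-forming cells. FGF18 and FGF9 are ligands of FGFR3 in developing cartilage, and FGF2 is a widely expressed ligand that is stored in the matrix.

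The receptors changed in different ways. Fgfr2 rose with dexamethasone, Fgfr3 rose and Fgfr1 fell with LiCl, and these 2 LiCl differences were also present when both drugs were compared with the control. Levels are given in CPM, the counts divided by a library size that was scaled by the trimmed mean of M-values (TMM). Differences are log2 fold changes, each given with the standard error of the fit (SE). A gene was called changed when its adjusted p in edgeR's quasi-likelihood test (Benjamini-Hochberg over 12602 genes) was below 0.05. Levels of different genes were not compared, because gene lengths were not used here.

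**Figure D1:**
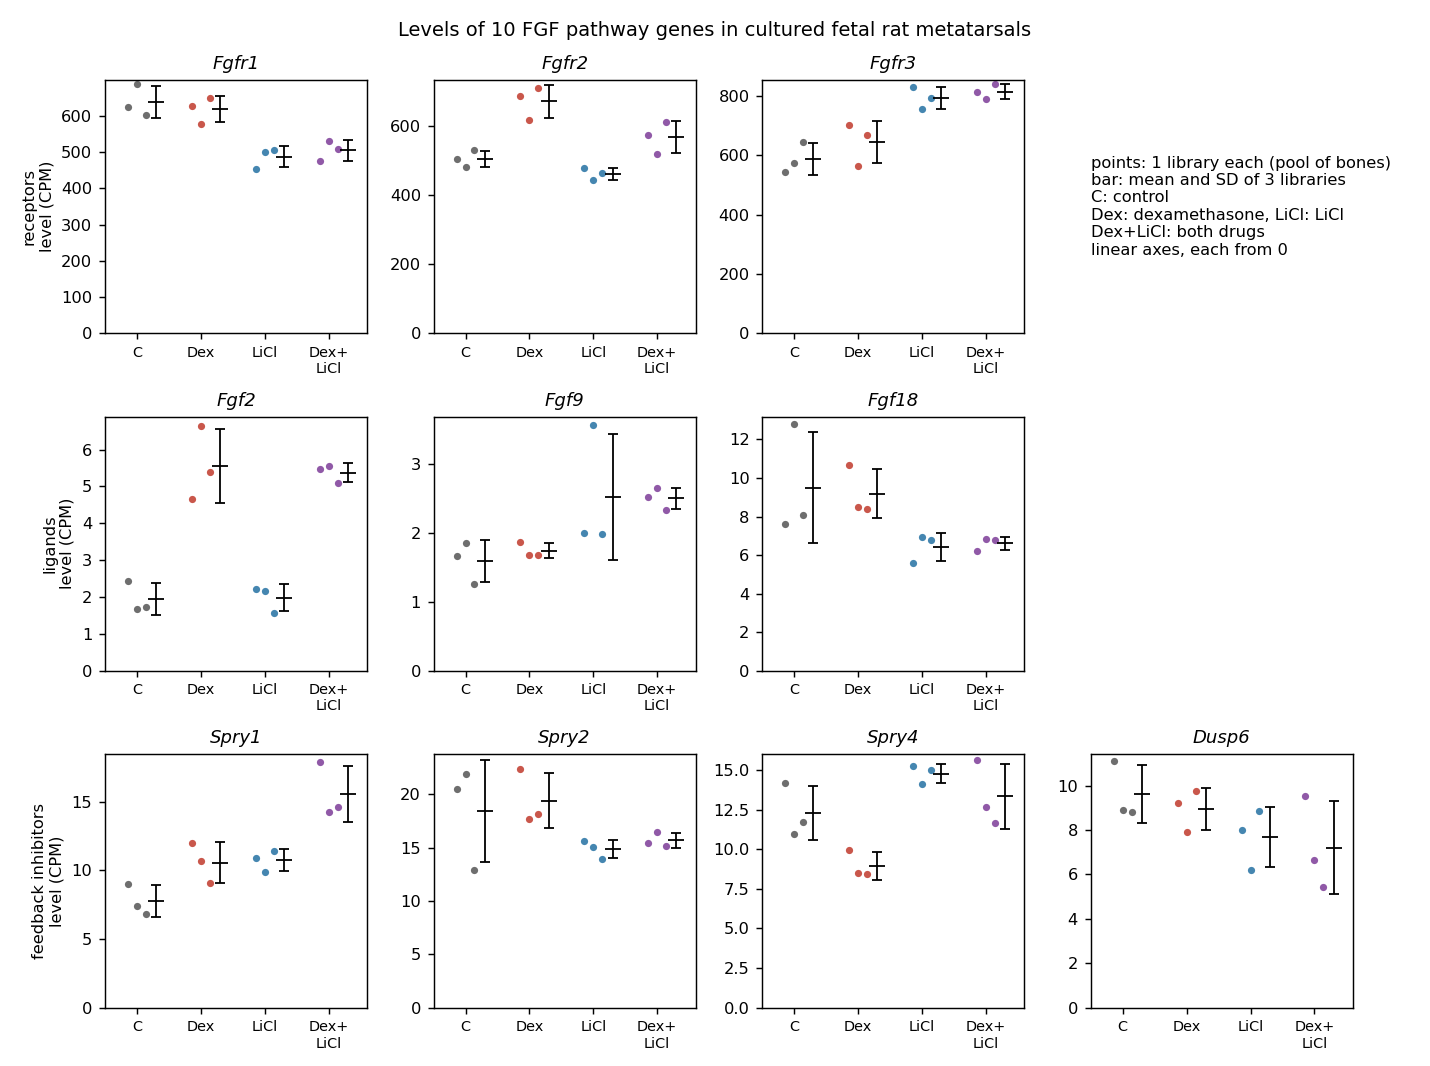
TMM-scaled CPM of the 10 FGF genes in each of the 12 libraries (points; 3 per group) with the group mean (line) and SD (bar). Fgf2 stood between 4.66 and 6.63 CPM in the 6 libraries with dexamethasone and between 1.55 and 2.43 CPM in the 6 without it.

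Fgfr3, the receptor that restrains chondrocyte proliferation, had 543, 574 and 646 CPM in the control pools and 829, 755 and 792 CPM in the LiCl pools. With dexamethasone alone it had 702, 565 and 668 CPM, and with both drugs 815, 789 and 839 CPM. All 6 libraries with LiCl lay above all 6 libraries without it. Fgfr3 rose by 0.43 ± 0.10 (log2, SE; 34.8% higher; n = 3 and 3; edgeR adjusted p = 0.00894) with LiCl against the control. It rose by 0.47 ± 0.10 (adjusted p = 0.00211) with both drugs against the control. With LiCl added to dexamethasone it rose by 0.34 ± 0.10 (adjusted p = 0.0395). This call was lost when 1 of 7 libraries was left out (dexamethasone 2 or 3, LiCl 2 or 3, or any library with both drugs; adjusted p = 0.0503 to 0.118) and when only these 2 groups were fitted (adjusted p = 0.0571). Dexamethasone alone gave a difference of 0.13 ± 0.10 (95% interval -0.07 to 0.34; adjusted p = 0.42), with overlapping groups.

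Fgfr1, the receptor known from hypertrophic chondrocytes and osteoblasts, had 624, 688 and 603 CPM in the controls, 455, 501 and 506 CPM with LiCl, 628, 578 and 649 CPM with dexamethasone, and 474, 532 and 509 CPM with both drugs. The 6 libraries with LiCl lay below the 6 without it. Fgfr1 fell by 0.39 (log2, SE 0.09; edgeR adjusted p = 0.00883) with LiCl against the control, and by 0.34 (SE 0.09; adjusted p = 0.00986) with both drugs against the control. Each of these calls was lost by leaving out 1 library, LiCl 1 in the first (adjusted p = 0.0526) and replicate 1 with both drugs in the second (adjusted p = 0.055). With LiCl added to dexamethasone Fgfr1 fell by 0.29 (SE 0.09; adjusted p = 0.0461), a call near the threshold. Leaving out 1 library kept this call only for control 2, control 3 or dexamethasone 2. Without any of the other 9 the adjusted p was 0.0577 to 0.175, and in 4 other fits it was 0.059 to 0.0724. Dexamethasone alone gave a difference of -0.05 (SE 0.09; 95% interval -0.23 to 0.14; adjusted p = 0.791).

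Fgfr2, the receptor known from the perichondrium, had 504, 484 and 530 CPM in the controls and 689, 620 and 711 CPM with dexamethasone. With LiCl it had 479, 445 and 464 CPM, and with both drugs 574, 520 and 611 CPM. The dexamethasone pools were the highest of the 4 groups, and every library with both drugs lay below every library with dexamethasone alone and above every LiCl library. Fgfr2 rose by 0.41 ± 0.09 (log2, SE; 33.1% higher; 95% interval 0.23 to 0.59; edgeR adjusted p = 0.00464) with dexamethasone against the control, a call held in every alternative fit without a fold minimum and without any 1 library. Against LiCl alone, both drugs together gave 0.30 ± 0.09 (adjusted p = 0.049). This call was kept only when the library left out was control 2, dexamethasone 2 or replicate 2 with both drugs (otherwise adjusted p = 0.0528 to 0.205), and was lost with no count filter (0.0621) and in thinned counts (0.0619). The difference between both drugs and dexamethasone alone was -0.24 (SE 0.09; adjusted p = 0.0936). It passed with the replicate number as a block (adjusted p = 0.0259), in DESeq2 (adjusted p = 0.0311) and without dexamethasone 2 (adjusted p = 0.0496). LiCl alone gave -0.13 (SE 0.09; adjusted p = 0.366), although the 3 LiCl libraries lay below the 3 controls.

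**Figure D2:**
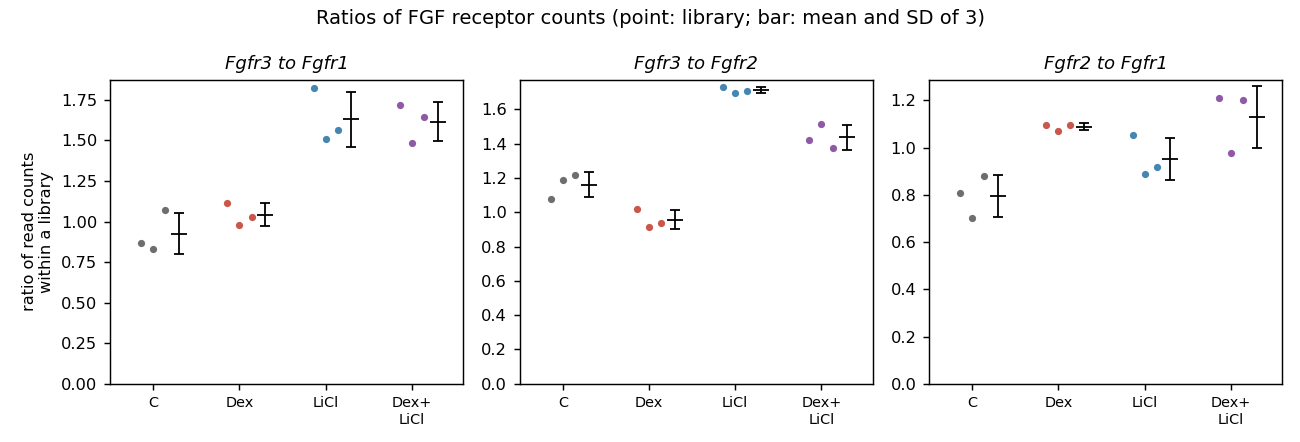
Ratios of the counts of 2 FGF receptor genes in each library (points; 3 per group) with the group mean (line) and SD (bar). The Fgfr3 to Fgfr1 ratio lay between 1.48 and 1.82 in the 6 libraries with LiCl and between 0.834 and 1.12 in the 6 without it.

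The receptors were also compared within each library, since the ratio of 2 receptor counts does not depend on the scaling of the libraries. The absolute value of such a ratio depends on the lengths of both genes, and only its differences between groups can be read. The Fgfr3 to Fgfr1 ratio was 0.870, 0.834 and 1.07 in the controls, 1.12, 0.976 and 1.03 with dexamethasone, 1.82, 1.51 and 1.56 with LiCl, and 1.72, 1.48 and 1.65 with both drugs. The balance was thus shifted to Fgfr3 in every library with LiCl. The Fgfr3 to Fgfr2 ratio was 1.16 ± 0.0737 (SD, n = 3) in the controls, 0.956 ± 0.0553 with dexamethasone, 1.71 ± 0.0175 with LiCl and 1.44 ± 0.0727 with both drugs. The Fgfr2 to Fgfr1 ratio was 0.797 ± 0.0890 in the controls, 1.09 ± 0.0149 with dexamethasone, 0.953 ± 0.0884 with LiCl and 1.13 ± 0.130 with both drugs. With 3 libraries against 3, the exact two-sided permutation test cannot go below p = 0.1 (adjusted p = 0.15 over 30 comparisons), so these ratios are descriptions.

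A 250-base window before the gene start was taken from RefSeq for 9 of the 10 genes, and none was used here for Fgfr1. The windows of Fgfr2 and Fgfr3, the receptors whose calls against the control held without any 1 library, are shown on the coding strand of the gene in the rat build GRCr8. They are printed without capitals, because none of the motifs searched was found in them.
Fgfr2, chr1:194280915-194281164, minus strand: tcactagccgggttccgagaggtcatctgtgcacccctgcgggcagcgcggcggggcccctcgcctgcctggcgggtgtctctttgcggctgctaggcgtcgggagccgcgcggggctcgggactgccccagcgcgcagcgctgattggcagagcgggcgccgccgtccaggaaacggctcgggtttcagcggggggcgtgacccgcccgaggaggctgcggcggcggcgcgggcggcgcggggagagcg
Fgfr3, chr14:81227210-81227459, minus strand: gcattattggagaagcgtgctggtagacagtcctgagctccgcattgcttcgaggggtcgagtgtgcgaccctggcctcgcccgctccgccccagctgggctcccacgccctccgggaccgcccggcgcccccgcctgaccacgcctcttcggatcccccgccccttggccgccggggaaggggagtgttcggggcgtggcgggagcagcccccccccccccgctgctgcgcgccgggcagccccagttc
Both windows were rich in G and C, with 76.8% in Fgfr2 and 74.4% in Fgfr3 against a median of 51.2% over 33469 windows. They held 37 and 26 CpG dinucleotides. The motifs searched on both strands were the glucocorticoid receptor half-site AGAACA, found in 17.5% of all windows of this length, the TCF/LEF core CTTTGAT (3.15%), the ETS core GGAAGT (19.2%) and the AP-1 core TGANTCA (6.34%). A match or its absence describes these letters only.

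Of the 2 ligands tested, Fgf2 was called and Fgf18 was not, and Fgf2 had the largest fold change of the 9 tested genes. Fgf2, the matrix-stored ligand, had 2.43, 1.67 and 1.71 CPM in the controls, 4.66, 6.63 and 5.38 CPM with dexamethasone, 2.22, 2.15 and 1.55 CPM with LiCl, and 5.46, 5.57 and 5.08 CPM with both drugs. The groups with dexamethasone lay wholly above those without it, and groups that differed only in LiCl overlapped. These levels rest on few counts, 18 to 54 per library in the controls and 45 to 79 with dexamethasone. Fgf2 rose by 1.50 ± 0.22 (log2, SE; 95% interval 1.02 to 1.97; edgeR adjusted p = 0.000299) with dexamethasone against the control. It rose by 1.43 ± 0.22 (adjusted p = 0.000231) with both drugs against the control, and by 1.45 ± 0.22 (adjusted p = 0.000533) with both drugs against LiCl. In the comparison of dexamethasone with the control, 0.881% of the 12602 genes had a higher fold change. With LiCl added to dexamethasone the difference was -0.06 (SE 0.21; 95% interval -0.51 to 0.38; adjusted p = 0.907).

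Fgf2 met the count minimum only through 3 libraries, all with dexamethasone, so the minimum itself favoured the direction found. With no count filter it was called in the same 3 comparisons. In RefSeq, Fgf2 overlaps Nudt6, a gene of a nudix hydrolase known as the antisense partner of Fgf2. The library kit kept the strand, but the sources used here do not state whether the counting used it. Without it, reads from the stretch where Fgf2 and Nudt6 overlap cannot be told apart. Nudt6, looked up after the values of Fgf2 were seen, had 5.31, 5.29 and 4.84 CPM in the controls, 12.2, 14.6 and 11.7 CPM with dexamethasone, 4.50, 5.19 and 5.13 CPM with LiCl, and 10.2, 11.6 and 9.23 CPM with both drugs. It thus rose in the same groups, by 1.32 ± 0.15 (log2, SE; edgeR adjusted p = 2.23e-05) with dexamethasone and by 1.00 ± 0.15 (adjusted p = 0.000191) with both drugs against the control, and whether the Fgf2 counts hold Nudt6 reads was not tested. The window before the Fgf2 start holds 1 match to AGAACA, at position -223 from the start and printed in capitals, and no match to the other motifs.
Fgf2, chr2:122164204-122164453, plus strand: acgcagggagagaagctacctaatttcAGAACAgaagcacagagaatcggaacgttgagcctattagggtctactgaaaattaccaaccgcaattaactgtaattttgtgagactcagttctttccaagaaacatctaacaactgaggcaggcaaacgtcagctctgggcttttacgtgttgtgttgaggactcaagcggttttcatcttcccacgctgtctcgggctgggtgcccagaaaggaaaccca
This window was lower in G and C (46.8%, 9 CpG dinucleotides) than those of Fgfr2 and Fgfr3.

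Fgf18, the FGFR3 ligand of the perichondrium, had 7.61, 12.8 and 8.06 CPM in the controls, 10.7, 8.48 and 8.41 CPM with dexamethasone, 5.57, 6.92 and 6.78 CPM with LiCl, and 6.23, 6.84 and 6.77 CPM with both drugs. The 6 libraries with LiCl lay below the 6 without it, but the difference did not pass the test. It was -0.53 (log2, SE 0.19; edgeR adjusted p = 0.0941) for LiCl against the control, -0.49 (SE 0.20; adjusted p = 0.0893) for both drugs against the control, and -0.47 (SE 0.20; adjusted p = 0.184) for LiCl added to dexamethasone. Without control 1, the comparison of both drugs with the control passed (-0.63; adjusted p = 0.0471). Over all alternative fits and omissions this difference ranged from -0.63 to -0.24 (edgeR adjusted p up to 0.342). That of LiCl against the control ranged from -0.67 to -0.28 (up to 0.336). For dexamethasone alone the difference was -0.02 (SE 0.19; 95% interval -0.43 to 0.39).

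Fgf9, another FGFR3 ligand, was near the limit of detection with 15 to 68 counts per library. It had 1.67, 1.86 and 1.26 CPM in the controls, 1.86, 1.68 and 1.68 CPM with dexamethasone, 2.00, 3.57 and 1.99 CPM with LiCl, and 2.51, 2.65 and 2.34 CPM with both drugs. The libraries with LiCl lay above those without it. With a milder count filter that kept Fgf9, the difference was 0.68 ± 0.27 (log2, SE; edgeR adjusted p = 0.131) for LiCl and 0.66 ± 0.29 (adjusted p = 0.115) for both drugs against the control, and it passed in no comparison.

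The 4 feedback inhibitors were called in different comparisons. Spry1 passed in the 3 comparisons of both drugs with another group, Spry4 fell with dexamethasone and rose when LiCl was added to it, and Spry2 and Dusp6 passed in no comparison. Spry1, a Sprouty inhibitor of receptor tyrosine kinase signalling, had 9.05, 7.43 and 6.80 CPM in the controls, 12, 10.7 and 9.08 CPM with dexamethasone, 10.9, 9.86 and 11.4 CPM with LiCl, and 17.9, 14.2 and 14.6 CPM with both drugs. Each single-drug group lay above the controls and below the pools with both drugs. Spry1 was 0.99 ± 0.15 higher (log2, SE; 95% interval 0.67 to 1.31; edgeR adjusted p = 0.000182) with both drugs than in the control. It was 0.55 ± 0.15 higher (adjusted p = 0.0355) with both drugs than with dexamethasone and 0.53 ± 0.14 higher (adjusted p = 0.0378) than with LiCl. The first of these 2 calls was lost without dexamethasone 2 or 3 or any library with both drugs (adjusted p = 0.0535 to 0.14), and the other without any LiCl library or any library with both drugs (0.0576 to 0.18). Each drug alone gave a difference of like size that missed the threshold, 0.44 ± 0.16 (adjusted p = 0.0862) for dexamethasone and 0.46 ± 0.15 (adjusted p = 0.0604) for LiCl. These passed with the replicate number as a block (0.0356 and 0.0193) and without control 1 (0.0416 and 0.036), and LiCl also in DESeq2 (0.0499). The interaction of the drugs was 0.09 ± 0.21 (95% interval -0.37 to 0.54; adjusted p = 0.946), so a departure from additive effects on the log2 scale was not detected.

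Spry4, another Sprouty inhibitor, had 14.2, 11 and 11.7 CPM in the controls and 9.93, 8.48 and 8.41 CPM with dexamethasone. It had 15.2, 14.1 and 15.0 CPM with LiCl, and 15.6, 12.7 and 11.7 CPM with both drugs. The 3 dexamethasone libraries were the lowest of the 12. Spry4 fell by 0.47 (log2, SE 0.14; edgeR adjusted p = 0.0476) with dexamethasone against the control. This call was kept only when the library left out was control 2 or replicate 1 or 3 with both drugs (otherwise adjusted p = 0.0558 to 0.165); it was lost in thinned counts (0.0862) and with only these 2 groups in the fit (0.121). With LiCl added to dexamethasone Spry4 rose by 0.56 ± 0.15 (adjusted p = 0.027), lost without dexamethasone 2 or 3 or replicate 1 or 2 with both drugs (0.0551 to 0.111) and in thinned counts (0.0612). Both drugs against the control gave 0.09 ± 0.14 (95% interval -0.20 to 0.38; adjusted p = 0.676). LiCl alone gave 0.25 ± 0.13 (adjusted p = 0.241). Its interaction, 0.31 ± 0.20 (adjusted p = 0.838), was not called.

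Spry2, the third Sprouty gene measured, had 20.5, 21.9 and 12.9 CPM in the controls, 22.3, 17.7 and 18.2 CPM with dexamethasone, 15.6, 15.1 and 13.9 CPM with LiCl, and 15.4, 16.4 and 15.2 CPM with both drugs. Control 3 lay below every other library, and the controls therefore overlapped the LiCl groups. The difference was -0.30 (log2, SE 0.16; edgeR adjusted p = 0.248) for LiCl against the control. Without control 3 it became -0.51 (adjusted p = 0.0165), and that of both drugs against the control became -0.44 (adjusted p = 0.0224). Dexamethasone alone gave 0.08 ± 0.16 (adjusted p = 0.797).

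Dusp6, the phosphatase that inactivates ERK and is commonly read as a target of FGF signalling, had 11.1, 8.91 and 8.82 CPM in the controls, 9.21, 7.89 and 9.75 CPM with dexamethasone, 8.00, 6.19 and 8.86 CPM with LiCl, and 9.51, 6.66 and 5.43 CPM with both drugs. All 4 groups overlapped. The largest difference was -0.46 (log2, SE 0.20; 95% interval -0.89 to -0.02; edgeR adjusted p = 0.122), for both drugs against the control. Without replicate 1 with both drugs it was -0.69 (adjusted p = 0.0309). Over all alternative fits and omissions it ranged from -0.69 to -0.27 (edgeR adjusted p up to 0.419).

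**Figure D3:**
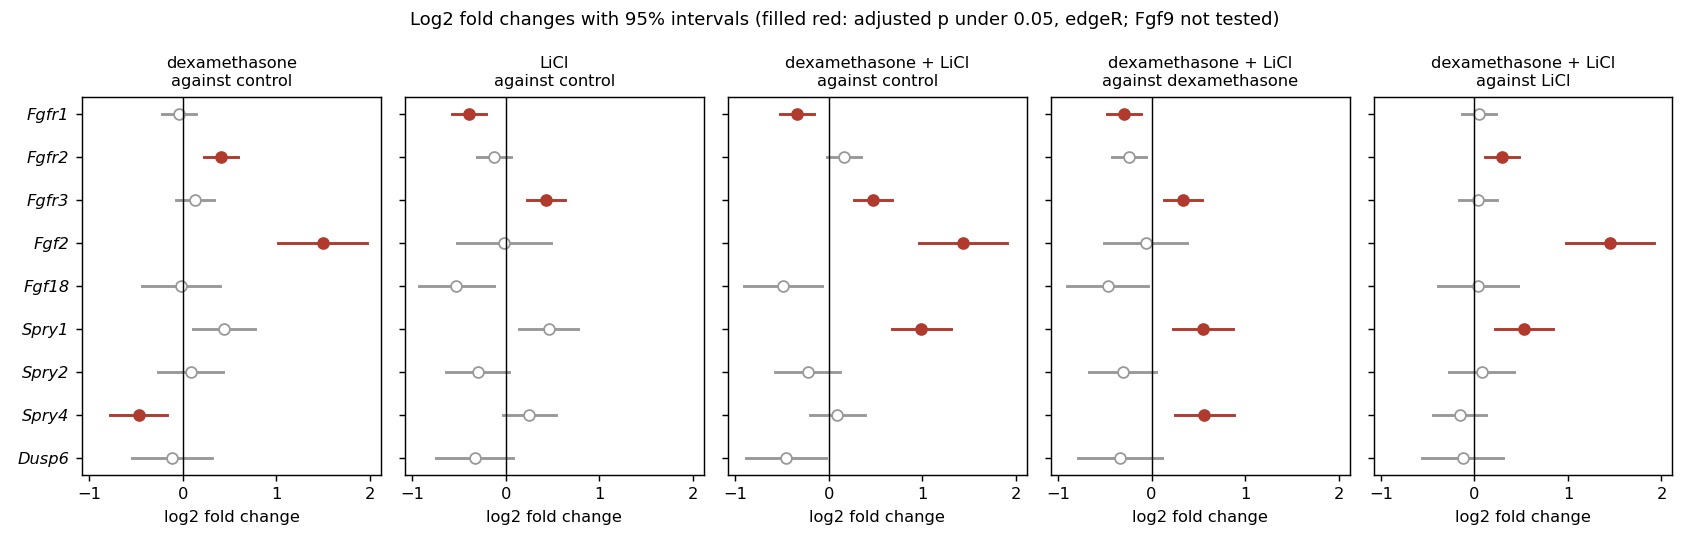
Log2 fold change (point) and its 95% interval (bar) for the 9 tested FGF genes in the 5 comparisons between groups; filled points have an adjusted p below 0.05. Fgf2 stands at 1.50 in dexamethasone against the control, 1.43 in both drugs against the control and 1.45 in both drugs against LiCl.

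Of the 9 tested genes, 3 were called in dexamethasone against the control (Fgf2 and Fgfr2 higher, Spry4 lower), beside 10.9% of all 12602 genes, 5.45% higher and 5.49% lower. In LiCl against the control 2 were called (Fgfr3 higher, Fgfr1 lower), beside 10.6% of all genes, 4.71% higher and 5.9% lower. With LiCl added to dexamethasone 4 were called (Fgfr3, Spry1 and Spry4 higher, Fgfr1 lower), beside 8.6%, 3.82% higher and 4.78% lower. Both drugs against the control gave 4 calls (Fgf2, Fgfr3 and Spry1 higher, Fgfr1 lower), beside 22.6%, 10.8% higher and 11.8% lower. Both drugs against LiCl gave 3 (Fgf2, Fgfr2 and Spry1, all higher), beside 6.87%, 3.79% higher and 3.09% lower. For the interaction of the drugs edgeR called none of the 9, beside 0.00794% of all genes. None had an unadjusted p below 0.05, and DESeq2 called none. In these counts Fgf2 was tested only because 3 libraries, all with dexamethasone, met the count minimum, so the minimum favoured its calls. With a fold above 2 required as well, Fgf2 was the only gene of the 9 left. It was left in dexamethasone against the control (beside 2.84% of all genes), both drugs against the control (4.37%) and both drugs against LiCl (2.01%). No gene of the 9 was left in LiCl against the control (1.58%) or with LiCl added to dexamethasone (1.36%). These comparisons share libraries and are not independent of each other. With 9 genes, the shares are given as counts only, and no enrichment was tested.

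The other genes of the pathway were read from a list of 71 genes, 52 of which met the count minimum. Of these 52, 18 were called in at least 1 of the 5 comparisons between groups. The like share over all 12602 genes was not computed, so this count is a description only. In dexamethasone against the control 4 were higher and 2 lower (11.5% of the 52, beside 10.9% of all genes). In LiCl against the control 3 were higher and 6 lower (17.3%, beside 10.6%). With LiCl added to dexamethasone 3 were higher and 4 lower (13.5%, beside 8.6%). Both drugs against the control gave 8 higher and 7 lower (28.8%, beside 22.6%). Both drugs against LiCl gave 1 higher and 2 lower (5.77%, beside 6.87%), with 5 called with the replicate number as a block. Of the 40 calls in these comparisons, 15 held in every alternative fit without a fold minimum and without any 1 library, and 25 were lost without at least 1 library. The median log2 fold change of the 52 genes was 0.06, 0.01, -0.05, -0.01 and 0.05 in these comparisons, in the order given, and that of all genes lay within 0.01 of 0. For the interaction edgeR and DESeq2 called none, with 3 at an unadjusted p below 0.05.

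**Figure D4:**
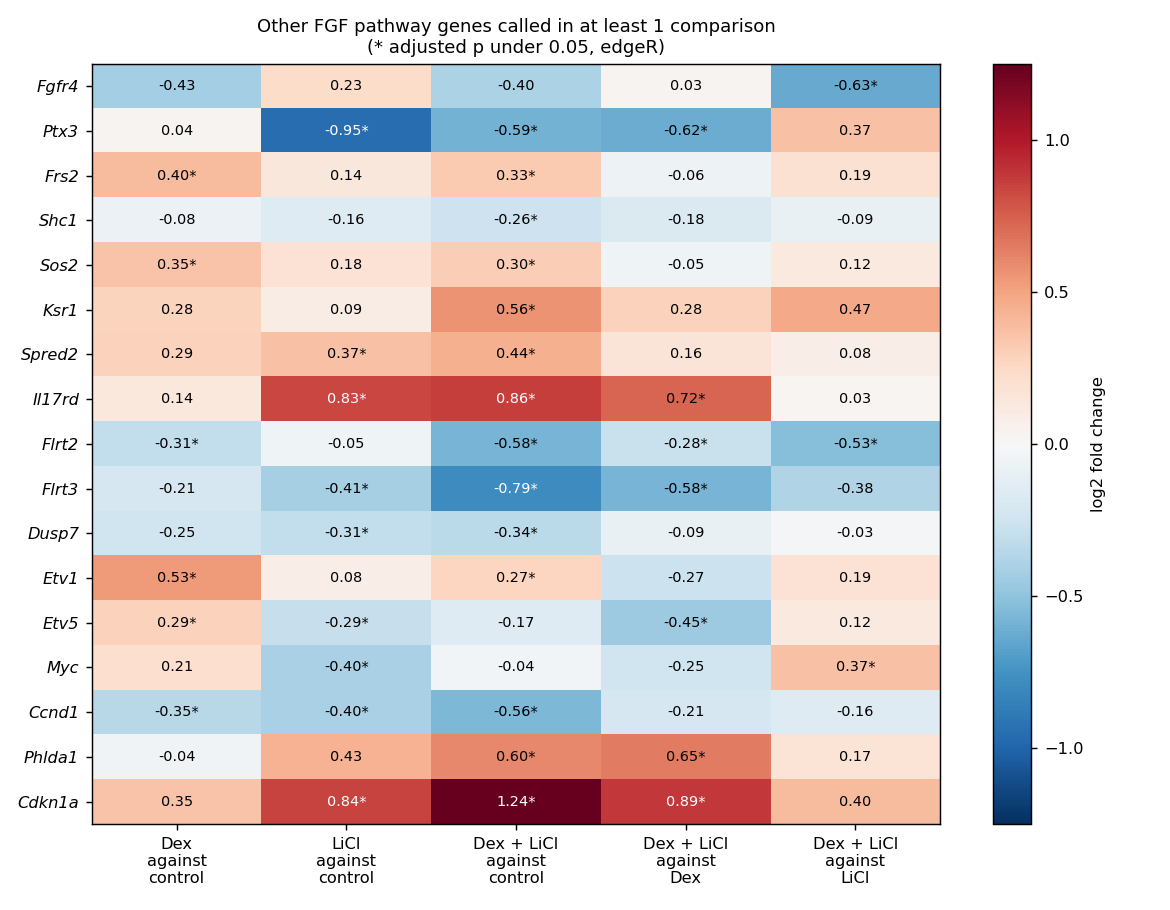
Log2 fold changes (colour) of the FGF pathway genes outside the 10 called in at least 1 comparison between groups, with 1 called gene not shown; printed values are the log2 fold changes, and asterisks mark an adjusted p below 0.05. Il17rd and Cdkn1a are higher in the comparisons that add LiCl, and Flrt3 is lower in them.

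Upstream of ERK, the genes called in at least 1 comparison between groups were Fgfr4, Ptx3, 3 adaptors and Ksr1. Of the 14 other ligands listed, 3 were tested (Fgf7, Fgf10 and Fgf22) and edgeR and DESeq2 called none in any comparison. At an unadjusted p below 0.05 there were 1 in dexamethasone and 2 in LiCl against the control, 1 for LiCl added to dexamethasone, 1 for both drugs against LiCl and 0 for both drugs against the control. The embryonic ligands Fgf4 and Fgf8 and the bone hormone Fgf23 had 0 counts in all 12 libraries. Fgfr4, the fourth signalling receptor, had 25.0 ± 2.63 CPM with LiCl and 16.1 ± 1.79 CPM with both drugs (SD, n = 3), a fall by 0.63 against LiCl (log2, SE 0.14; edgeR adjusted p = 0.0108). Ptx3, a pentraxin that binds FGF2, fell by 0.95 (SE 0.16; adjusted p = 0.00141) with LiCl, from 13.4 ± 2.62 to 6.81 ± 0.927 CPM, and by 0.62 (SE 0.17; adjusted p = 0.0296) with LiCl added to dexamethasone. Of 10 tested adaptors, Frs2, which couples the receptors to GRB2 and SOS, rose by 0.40 ± 0.10 (adjusted p = 0.0166) with dexamethasone. Sos2, a RAS exchange factor, rose by 0.35 ± 0.09 (adjusted p = 0.0161) with dexamethasone, and these 2 were the adaptors called in that comparison. With both drugs against the control 3 of the 10 were called, beside 22.6% of all genes. Frs2 rose there by 0.33 ± 0.10 (adjusted p = 0.0263) and Sos2 by 0.30 ± 0.09 (adjusted p = 0.0226), and Shc1, another adaptor, fell by 0.26 (SE 0.08; adjusted p = 0.0403). Of 13 tested genes of the RAS-ERK cascade itself, 1 was called, the scaffold Ksr1 with both drugs against the control (0.56 ± 0.19; adjusted p = 0.0488). Of these calls, that of Ptx3 with LiCl held without any 1 library. The call of Ptx3 with LiCl added to dexamethasone was lost without dexamethasone 1 or 3 or any library with both drugs (adjusted p up to 0.111), that of Fgfr4 without LiCl 3 or replicate 2 of both drugs (up to 0.0648), and that of Frs2 with dexamethasone without dexamethasone 2 (0.0664). That of Sos2 with dexamethasone was lost without control 2 or dexamethasone 1 or 2 (up to 0.0876). With both drugs against the control, Frs2 was lost without control 2 or any library with both drugs (up to 0.0766) and Sos2 without control 2 or replicate 1 or 2 of both drugs (up to 0.0676). Those of Shc1 and Ksr1 were lost without any of 7 and 9 libraries (up to 0.152 and 0.162), and Ksr1 also in 5 other fits, that with the replicate block among them. With only the compared groups fitted, Frs2 (0.0958) and Sos2 (0.0976) were lost in dexamethasone against the control, and Frs2 (0.0727) and Shc1 (0.0683) in both drugs against the control.

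The list of other feedback inhibitors also holds Flrt2 and Flrt3, which bind FGF receptors and are not read as inhibitors here. With LiCl against the control, Il17rd and Spred2 of this list were called higher and Flrt3 and Dusp7 lower. Il17rd, also known as Sef, which binds FGF receptors and restrains ERK signalling, had 14.6 ± 2.52 CPM in the controls, 16.1 ± 2.46 CPM with dexamethasone, 26.2 ± 0.967 CPM with LiCl and 26.8 ± 1.92 CPM with both drugs (SD, n = 3). It rose by 0.83 ± 0.13 (log2, SE; edgeR adjusted p = 0.000705) with LiCl against the control and by 0.72 ± 0.13 (adjusted p = 0.0033) with LiCl added to dexamethasone. Spred2, a Sprouty-related inhibitor of RAF activation, rose by 0.37 ± 0.11 (adjusted p = 0.0446) with LiCl. Flrt3, a membrane protein that binds FGF receptors, had 31.8 ± 1.07, 27.5 ± 1.72, 23.9 ± 1.13 and 18.4 ± 3.19 CPM in the control, dexamethasone, LiCl and combined groups. Flrt3 fell by 0.41 (SE 0.11; adjusted p = 0.0209) with LiCl and by 0.79 (SE 0.11; adjusted p = 9.35e-05) with both drugs against the control. Its relative Flrt2 fell by 0.31 (SE 0.08; adjusted p = 0.0218) with dexamethasone and by 0.58 (SE 0.08; adjusted p = 9.18e-05) with both drugs. The calls of Il17rd, that of Flrt3 with both drugs and that of Flrt2 with both drugs held without any 1 library. The call of Flrt3 with LiCl was lost without LiCl 1 or 3 (adjusted p up to 0.0853) and in thinned counts (0.126). That of Flrt2 with dexamethasone was lost without control 1 or 3 or dexamethasone 1 or 3 (up to 0.0804) and with only these 2 groups fitted (0.0965). That of Spred2 was lost without any of 7 libraries, all controls and LiCl libraries among them (up to 0.120), and in 3 other fits (up to 0.114). Dusp7, another ERK phosphatase, was also lower in 2 comparisons, LiCl and both drugs against the control. Its call with LiCl was lost without any of 6 libraries (edgeR adjusted p up to 0.144) and with only these 2 groups fitted (0.0768). That with both drugs was lost without replicate 1 of both drugs (0.0644).

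Among 9 tested ERK-responsive genes the direction was mixed as well. Etv5, an ETS factor commonly induced by FGF, had 72.6 ± 3.87 CPM in the controls, 88.4 ± 9.65 CPM with dexamethasone, 59.4 ± 3.38 CPM with LiCl and 64.6 ± 0.462 CPM with both drugs (SD, n = 3). It rose by 0.29 ± 0.09 (log2, SE; edgeR adjusted p = 0.0424) with dexamethasone, fell by 0.29 (SE 0.08; adjusted p = 0.0423) with LiCl, and fell by 0.45 (SE 0.09; adjusted p = 0.00438) when LiCl was added to dexamethasone. Etv1, a related factor, rose by 0.53 ± 0.09 (adjusted p = 0.000593) with dexamethasone. Ccnd1, the G1 cyclin, had 223 ± 11.8 CPM in the controls, 175 ± 15.0 CPM with dexamethasone, 169 ± 9.50 CPM with LiCl and 151 ± 9.57 CPM with both drugs, a fall by 0.35, 0.40 and 0.56 against the control (adjusted p = 0.0125, 0.00645 and 0.000187). Phlda1 rose by 0.65 ± 0.17 (adjusted p = 0.0257) with LiCl added to dexamethasone, and Myc was called in 2 comparisons. The call of Etv5 with LiCl added to dexamethasone, that of Etv1 and those of Ccnd1 with LiCl and with both drugs held without any 1 library. The calls of Etv5 with each drug alone were each lost without any of 9 libraries (adjusted p up to 0.155 and 0.153). That with dexamethasone was also lost in 4 other fits (up to 0.152), and that with LiCl with only these 2 groups fitted (0.0525). The call of Ccnd1 with dexamethasone was lost without dexamethasone 1 or 2 (up to 0.0582) and with only these 2 groups fitted (0.0663). That of Phlda1 was lost without dexamethasone 2 or 3 or replicate 1 or 3 of both drugs (up to 0.112) and with only the compared groups fitted (0.0527).

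Of 4 tested effectors linked to FGFR3 in chondrocytes, Cdkn1a, the cell cycle inhibitor p21 that is induced downstream of FGFR3 and also by p53, changed most. It had 76.7 ± 2.09 CPM in the controls, 98.2 ± 21.1 CPM with dexamethasone, 138 ± 8.65 CPM with LiCl and 181 ± 7.92 CPM with both drugs (SD, n = 3). It rose by 0.84 ± 0.12 (log2, SE; edgeR adjusted p = 0.000356) with LiCl, by 0.89 ± 0.12 (adjusted p = 0.000269) with LiCl added to dexamethasone and by 1.24 ± 0.12 (adjusted p = 2.24e-06) with both drugs against the control. Sox9 and Snai1 passed in no comparison between groups. The calls of Cdkn1a held without any 1 library.

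**Figure D5:**
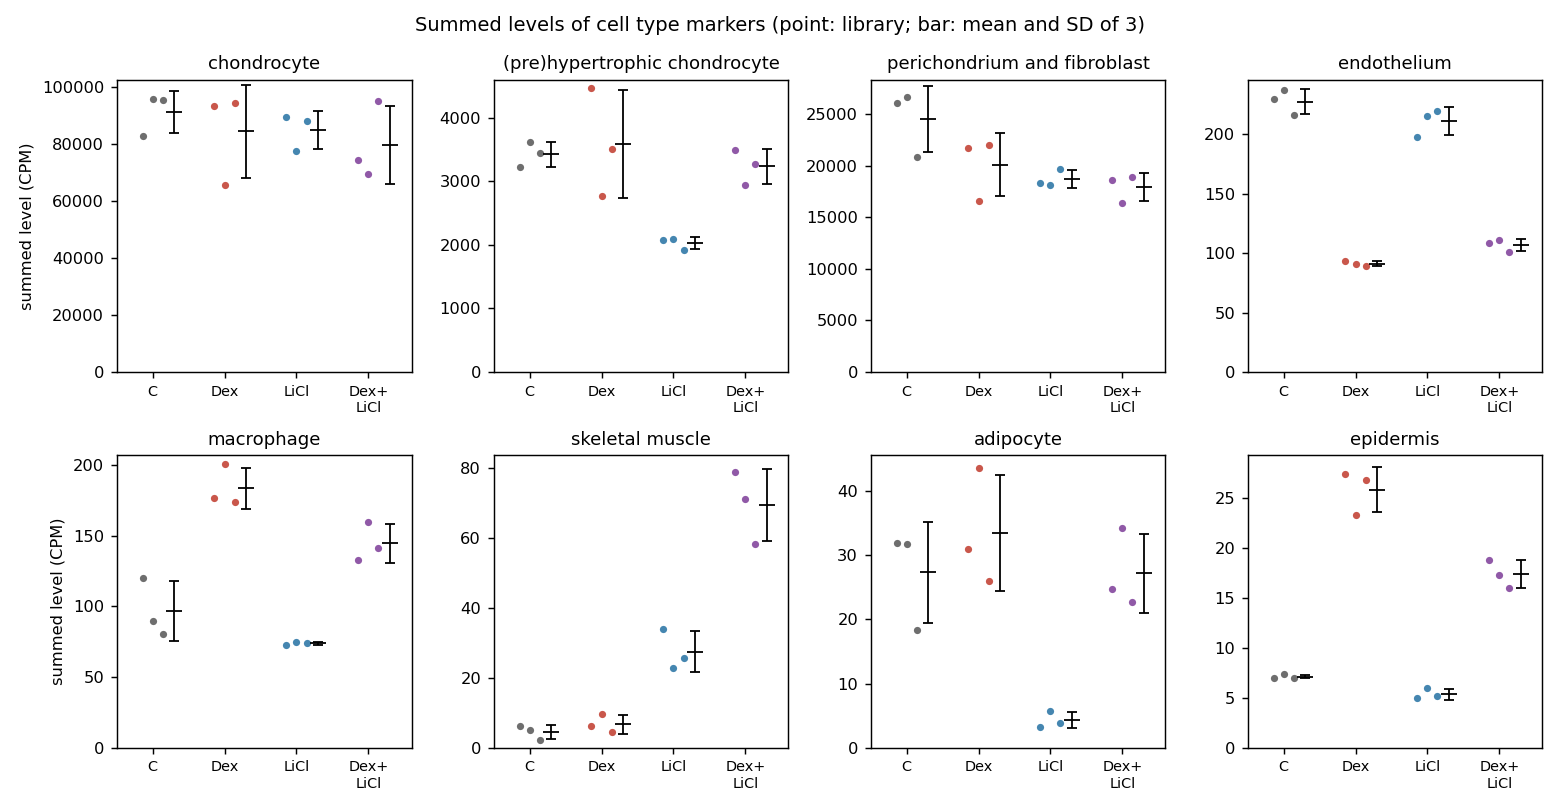
Summed CPM of the marker genes of 8 cell types (panels; linear axes from 0) in each library (points), with the mean and SD of the 3 libraries of a group (bars). Endothelial markers lie between 89.2 and 111 CPM in the 6 libraries with dexamethasone and between 198 and 238 CPM in the 6 without it.

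The FGF genes are expressed by several cell types of the bone, and marker levels of some of these moved with the same groups. Marker lists are given by the range of their summed CPM and by the number of their tested genes called. The 8 chondrocyte markers summed to 82728 to 95551 CPM in the controls, 65409 to 94324 CPM with dexamethasone, 77359 to 89296 CPM with LiCl and 69373 to 94933 CPM with both drugs. These sums, of which Col2a1 is the largest part, overlapped between the 4 groups, while single markers were called. Against the control, 1 of 8 was called higher with dexamethasone, 2 lower with LiCl, and 1 higher and 3 lower with both drugs. The 2 lower with LiCl were the matrilins Matn1 (2981 ± 417 CPM in the controls and 1764 ± 121 CPM with LiCl; SD, n = 3) and Matn3 (1181 ± 64.3 and 860 ± 30.8 CPM).

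In LiCl against the control, Fgfr3 rose and Fgfr1 fell. There the 4 prehypertrophic and hypertrophic markers summed to 1919 to 2096 CPM against 3219 to 3612 CPM in the controls, with 1 of 4 called lower. Col10a1 was the largest part of this sum, with 2631 ± 235 CPM in the controls and 1295 ± 116 CPM with LiCl (SD, n = 3). Pth1r had 382 ± 20.4 and 307 ± 36.4 CPM, Ihh 124 ± 14.7 and 131 ± 8.41 CPM, and Mef2c 286 ± 41.7 and 298 ± 14.5 CPM. The 8 perichondrial and fibroblast markers summed to 18159 to 19663 against 20794 to 26663 CPM, with 1 of 8 called lower, and the 6 osteoblast markers to 843 to 1111 against 1253 to 1431 CPM, with none of 5 called. Adipocyte markers (4 genes) were at 3.29 to 5.72 against 18.3 to 32.0 CPM, and the 2 genes tested, Adipoq and Fabp4, were called lower. Adipoq met the count minimum only through 2 control libraries. Fgfr3 was also higher and Fgfr1 lower with both drugs than in the control. In that group the prehypertrophic and hypertrophic markers summed to 2938 to 3490 CPM, and Col10a1 had 2553 ± 231 CPM. The perichondrial and fibroblast markers summed to 16368 to 18854 CPM there, the osteoblast markers to 782 to 1322 CPM and the adipocyte markers to 22.7 to 34.2 CPM. Muscle markers (7 genes) stood at 2.27 to 6.30 CPM in the controls, 22.7 to 34.1 CPM with LiCl and 58.4 to 78.8 CPM with both drugs, and the 3 genes tested were called higher in both of these groups. Of these 3, Acta1 and Myl1 met the count minimum only through libraries with LiCl, so the minimum favoured that direction. The muscle regulator Myod1 had at most 17 counts in any library.

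In dexamethasone against the control, where Fgf2 and Fgfr2 rose and Spry4 fell, the 10 endothelial markers summed to 89.2 to 93.1 against 216 to 238 CPM, with 8 of 9 called lower. Of these 9, Flt1 met the count minimum only through 4 libraries, all without dexamethasone, so the minimum favoured a fall. The 8 perichondrial and fibroblast markers summed to 16607 to 21976 against 20794 to 26663 CPM, with 3 of 8 called lower and 1 higher. The one called higher was Postn, a matrix protein of the periosteum and perichondrium (590 ± 127 CPM in the controls and 1512 ± 168 CPM with dexamethasone; SD, n = 3). The 8 macrophage markers summed to 174 to 201 against 80.2 to 120 CPM, with 4 of 8 called higher and 1 lower. Mean levels rose for C1qa, C1qb, Cd163 and Mrc1, with Mrc1 going from 11.6 to 51.4 CPM. They fell for Csf1r, Aif1, Ptprc and Cd68, with Cd68 going from 24.4 to 17.2 CPM. Cd163 met the count minimum only through the 6 libraries with dexamethasone, so the minimum favoured a rise. Aif1 met it only through 2 control libraries, so there the minimum favoured a fall. Whether the number of macrophages changed was not tested. The 4 epidermal markers summed to 23.2 to 27.4 against 7.33 CPM or less, but the defining keratins Krt5 and Krt14 had at most 1 count in any library. Osteoclast markers (5 genes) were at 161 to 180 CPM in the controls and at 128 CPM or below in all treated libraries, and Schwann cell markers (4 genes) at 17.2 to 21.0 CPM in the controls and 12.2 to 17.1 CPM in the treated libraries. The part of these shifts in the FGF results was not tested.

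For each gene called in at least 1 comparison, the genes with the most similar pattern over the 12 libraries were found from the root-mean-square difference of log2 CPM centred on the gene mean. Fgfr3 was followed most closely by Trpv4, a calcium channel of chondrocytes (difference 0.07 log2 units, against a median of 0.28 over all other genes), P2rx4 and Acly. Fgfr1 was nearest to Colgalt1, a collagen galactosyltransferase (0.07, median 0.26), Ginm1 and Wipi1, and Fgfr2 to Apbb2 (0.06, median 0.28), Osbpl1a and Slc25a24. Fgf2 was nearest to Cldn1, a tight junction protein (0.19, median 0.76), Lpin1 and Smim3. Spry1 was nearest to Prnp (0.15, median 0.42), Sod3 and Slfn13, and Spry4 to S1pr3 (0.11, median 0.35), Sema4d and Lxn. The lists share no gene, and the libraries share their scaling.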

How the data were processed

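Libraries were made from total RNA of 12 pools of metatarsals with a strand-specific polyA kit and sequenced in pairs. Per the paper's methods and the submitters' processing notes, the authors aligned reads with Subread, removed duplicates with Picard, counted genes with HTSeq, and merged technical replicates; the values deposited are raw counts per gene symbol and library. The notes name human builds (hg19, GRCh37) for these rat libraries, so the build used is unsettled, the annotation and strand setting are not given in the sources used here, and no gene coordinates are printed from the count tables. Totals per library were 9055581 to 21953446 counts.

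The counts were fitted in edgeR 4.0.16 (R 4.3.3) with TMM scaling, condition as the only term, all 12 libraries together and the 12602 genes that reached 60 counts in 2 or more libraries, which is the count minimum of the study. A call needed a Benjamini-Hochberg adjusted p below 0.05 in the quasi-likelihood test; no fold minimum was set. The SE is the log2 fold change divided by the root of F. The code was run on simulated counts drawn with the dispersions of the fit and no replicate effect, which checks the code only. Alternatives were RLE scaling, DESeq2 1.42.0, filterByExpr, no count filter, the replicate number as a block, only the groups compared, a fold minimum of 2, counts thinned to the smallest library, and leaving out each library.

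Every FGF gene was named; of each sub-list of the pathway at most 4 genes with the smallest adjusted p are given with values, and Nudt6, Dusp7, Myc, Sox9, Snai1 and listed ligands are named beyond that rule. The result of 1 gene of the pathway list enters the counts and is not reported here by name. Gene lists and members were chosen with earlier results of these data known. Same-numbered libraries correlated in their deviations from the group means at 0.209 to 0.302 for LiCl against control and 0.191 to 0.500 for LiCl added to dexamethasone. The values were 0.133 to 0.294 for both drugs against control and 0.278 to 0.413 for both drugs against LiCl. They were 0.0273 to 0.170 for dexamethasone against control. By this check the numbers pair the samples in all but the last, where a pair of unlike numbers reached 0.0782. Pairing in the other comparisons implies pairing of control and dexamethasone as well, which this check alone did not resolve. The reported values have no block, and the blocked value stands beside each result of the 9 tested FGF genes whose call it changes. The labels call the replicates biological. Per the paper, the pools came from 3 experiments and each pool from 1 of 3 rats, and no source ties the numbers to either. Promoter windows came from RefSeq (GRCr8).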

Additional observations from a re-analysis of the deposited data

How the results depend on the processing

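The called changes of Fgfr3 (LiCl and both drugs against the control), Fgfr2 (dexamethasone against the control), Fgf2 (3 comparisons) and Spry1 (both drugs against the control) kept their direction and call in every fit run without a fold minimum, also without any 1 library, except that Fgf2 did not reach the count minimum in thinned counts and has no value there. The other calls were lost in at least 1 fit, given with its value beside each of them.

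Of the 9 FGF genes tested, a fold above 2 left 1 call in dexamethasone against the control, 1 in both drugs against the control, 1 in both drugs against LiCl, 0 in LiCl against the control and 0 with LiCl added to dexamethasone. Of the other pathway genes it left 1 in both drugs against the control and 0 in each other comparison. In thinned counts, where Fgf2 was not tested, 1 FGF gene was called in dexamethasone against the control, 2 with LiCl added to dexamethasone and 1 in both drugs against LiCl. With only the compared groups fitted, 2 FGF genes were called with LiCl added to dexamethasone, and of the other pathway genes 1 in dexamethasone against the control and 5 in both drugs against LiCl. In this last comparison DESeq2 and no count filter also gave 5, against 3 in the reported fit, and the cause was not tested. Apart from the fold minimum, the share of all genes called was not computed for the alternative fits or with 1 library left out. Their counts of calls are therefore descriptions only.

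With the replicate number as a block, the calls of the other pathway genes in both drugs against LiCl rose to 5, Spry1 was gained in both single-drug comparisons and Fgfr2 with LiCl added to dexamethasone. No other call of the 9 FGF genes changed with the block.

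Leaving out 1 library gave 1 to 3 FGF genes in LiCl against the control, 0 to 4 with LiCl added to dexamethasone and 1 to 3 in both drugs against LiCl. The count was 0 without dexamethasone 3 or without replicate 1 or 2 of both drugs, and 1 without replicate 3 of both drugs, for LiCl added to dexamethasone. It was 2 there without dexamethasone 2, LiCl 2 or LiCl 3. It was 1 without any LiCl library or replicate 1 or 3 of both drugs for both drugs against LiCl, and 1 without LiCl 1 for LiCl against the control. Of the other pathway genes, the calls were 3 to 6 in dexamethasone against the control (3 without dexamethasone 1), 5 to 11 in LiCl against the control (5 without any LiCl library) and 4 to 8 with LiCl added to dexamethasone (4 without dexamethasone 3 or replicate 1 or 3 of both drugs). They were 8 to 18 in both drugs against the control (8 without replicate 1 or 2 of both drugs) and 1 to 5 in both drugs against LiCl (1 without LiCl 3, 5 without control 2).

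Differences near 0 turned sign when 1 library was left out. Their log2 fold changes ranged from -0.086 to 0.012 for Fgfr1, from -0.17 to 0.23 for Fgf18, from -0.13 to 0.21 for Spry2 and from -0.18 to 0.0054 for Dusp6 in dexamethasone against the control. They ranged from -0.12 to 0.20 for Fgf2 in LiCl against the control and from -0.17 to 0.10 for Fgf2 with LiCl added to dexamethasone. For both drugs against LiCl they ranged from -0.044 to 0.10 for Fgf18 and from -0.36 to 0.064 for Dusp6, and for both drugs against the control from -0.027 to 0.21 for Spry4. Depth limits the ligands most, since Fgf2 and Fgf9 had at most 87 counts in a library.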

Other observations

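Fgf2 and Spry1 lie near each other on the chromosome in RefSeq, in the order Fgf2, Nudt6, Afg2a (listed as Spata5 in the count tables), a snoRNA, a pseudogene and Spry1. Spata5, looked up after the values of Fgf2 and Spry1 were seen, gave -0.11 (log2; edgeR adjusted p = 0.682) with dexamethasone and fell by 0.50 (adjusted p = 0.0224) with both drugs against the control, where Fgf2, Nudt6 and Spry1 were higher.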
